A study of Mus musculus with 47 samples.

Results

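Late darkness was compared with early darkness in the retinas of 20-month-old mice. The comparison covered 4 libraries taken at zeitgeber time 22 (ZT22) and 4 taken at ZT14, where ZT counts hours from lights on in a cycle of 12 h light and 12 h dark, so that both times fell in the dark. Its members were the genes with at least 0.5 RPKM (reads per kilobase of exon, scaled to the reads of the library) in 4 or more of these 8 libraries, which kept 14443 of 57180 genes in the table (25.3%) and left 42737 below the limit. The mice were of the inbred strain C57BL/6, the groups carried no allele or treatment named in the labels, and each library came from the right eye of 1 mouse, dissected under dim red light. Retinas of 6-week-old mice of the same strain and light cycle, again 4 libraries at each of the 2 times, served for comparison. The series holds 47 libraries in all, of which 3 from aged retinas at ZT18 show where the values stood between the 2 times.

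The retina keeps its own circadian clock, in which activator proteins drive the Per and Cry repressors and output factors such as Dbp through E-box sequences, and it also responds to light and darkness directly. Photoreceptors depolarise in the dark, renew their outer segments each day and carry a large load of membrane protein synthesis, so genes of phototransduction, synapses and protein folding are known to vary over the day. Immediate early genes such as Fos, Egr1 and Nr4a1 encode transcription factors that are switched on within minutes of calcium or cAMP signals and decay quickly.

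At ZT22 the immediate early genes Egr1, Nr4a1, Fos, Ier2 and Junb, the cold-inducible RNA-binding gene Rbm3, the cone arrestin gene Arr3 and the clock genes Per1 and Dbp were lower than at ZT14. The rod transcription factor gene Nr2e3, the adhesion gene Ctnna1, the cAMP phosphodiesterase gene Pde8b and 3 chaperone genes of the endoplasmic reticulum, Hsp90b1, Calr and Pdia3, were higher. The difference of Egr1 was the largest of the named genes, with a mean at ZT22 that was 19.1% of that at ZT14. All of these passed the limma test at a Benjamini-Hochberg adjusted p under 0.05, the threshold meant below by passed, rose and fell.

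Upstream sequences of 3 of these genes are shown because they hold motifs known for the clock or for protein folding stress. Each gives the 250 bases before the transcription start, 5' to 3' on the gene's own strand, from RefSeq on build GRCm38.p6, which is an earlier build than the one used for the reads. Capitals mark the matches named here. In Per1 (chr11:69098699-69098948, plus strand, the first of 2 starts listed) these are an E-box, CACGTG, that begins 166 bases before the start and a D-box, TTATGNAA, that begins 24 bases before it. In Hsp90b1 (chr10:86705445-86705694, minus strand) they are 2 copies of the endoplasmic reticulum stress element on opposite strands, 212 and 107 bases before the start. In Calr (chr8:84846932-84847181, minus strand) an E-box begins 224 bases and a reverse copy of the stress element 162 bases before the start. The Per1 sequence also holds the ROR element, AGGTCA, on the opposite strand, which is not marked.
Per1: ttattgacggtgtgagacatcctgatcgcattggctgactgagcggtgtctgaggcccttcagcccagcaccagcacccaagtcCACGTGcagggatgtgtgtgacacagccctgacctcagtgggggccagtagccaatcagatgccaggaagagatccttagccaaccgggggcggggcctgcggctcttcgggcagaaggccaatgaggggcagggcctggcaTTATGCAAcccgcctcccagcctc
Hsp90b1: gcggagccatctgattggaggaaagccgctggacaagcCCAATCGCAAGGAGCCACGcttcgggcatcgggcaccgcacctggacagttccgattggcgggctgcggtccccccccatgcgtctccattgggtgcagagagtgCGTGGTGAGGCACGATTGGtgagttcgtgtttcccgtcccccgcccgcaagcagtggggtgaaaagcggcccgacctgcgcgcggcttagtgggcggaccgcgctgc
Calr: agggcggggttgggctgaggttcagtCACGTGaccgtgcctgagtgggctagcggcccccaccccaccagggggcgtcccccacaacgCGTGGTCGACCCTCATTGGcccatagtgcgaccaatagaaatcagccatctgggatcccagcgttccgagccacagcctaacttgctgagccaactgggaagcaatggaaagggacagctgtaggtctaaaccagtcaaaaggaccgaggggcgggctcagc
Matches were counted on both strands over windows of 300 bases, 250 before and 50 after the start. Of 32851 such promoters, 0.119% held the stress element, 7.15% the E-box and 3.38% the D-box. The window of Pdia3 held no stress element. The windows of Fos, Nr4a1 and Dbp held none of the E-box, the D-box or the cAMP response element TGACGTCA. They also held neither of the 2 exact forms of 10 bases searched for the serum response element. Those forms stood in only 0.0639% and 0.0761% of the promoters. For the E-box, the D-box, the cAMP response element and the stress element, too, only the stated form was searched. Other forms of any of these motifs, and bases outside the windows, were not searched. The absence of these motifs from these genes therefore cannot be concluded. Promoters were found for 124 of the 166 genes that passed. An E-box stood in those of 16 of 87 genes that fell (18.4%) and 3 of 37 that rose (8.11%), beside 11.6% of 9968 tested genes with a promoter, and these shares were not tested. The stress element was added to the motifs after the values were seen.

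The 8 libraries held 32.8 to 46.5 M reads as implied by the values, with means of 36.9 M at ZT14 and 39.3 M at ZT22 (exact permutation test over 70 regroupings, two-sided p = 0.543, where 0.0286 is the smallest p possible). The rod transducin gene Gnat1 stood at 2682 to 4208 RPKM, and the markers of cones, bipolar, amacrine and ganglion cells and Muller glia were all detected. One library, ZT22 replicate 3, stood apart on the first principal component (33.1% of the variance), and the second (18.5%) separated the 2 times. It held the most Gnat1 and the least of Nefl, a ganglion cell marker, and Pax6, an amacrine cell marker, so list medians are also given without it. Lens genes differed the most among libraries: Cryaa, a lens crystallin, was at 0.598, 412, 108 and 19.2 RPKM in the ZT14 libraries and at 223, 224, 33.9 and 58.8 RPKM in those of ZT22. Summed over 12 tested lens genes the level ran from 21.0 to 1729.9 RPKM at ZT14 and from 169 to 799 RPKM at ZT22, and the lens crystallin gene Crygb, which was not tested, was at 0 in 1 library of each time. Blood genes (7 tested) summed to 104 to 764 RPKM and 157 to 855 RPKM, and retinal pigment epithelium markers (15 tested) to 174 to 364 RPKM and 166 to 294 RPKM, so that none of these separated the times. Of cornea genes, the keratin Krt12 stayed below 0.27 RPKM in every library, while Aldh3a1, a corneal aldehyde dehydrogenase, had means of 0.458 ± 0.372 and 1.72 ± 1.12 RPKM (SD, n = 4, log2 difference 1.09, limma adjusted p = 0.26, and 0.0512 without ZT22 replicate 3). Of muscle genes, Mylpf was at 2.27 ± 0.341 and 2.33 ± 0.386 RPKM and Acta1 at 0.782 ± 0.263 and 0.440 ± 0.163 RPKM (limma adjusted p = 0.247). In such whole tissue, fewer cells of a type and less RNA per cell cannot be told apart.

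**Figure D1:**
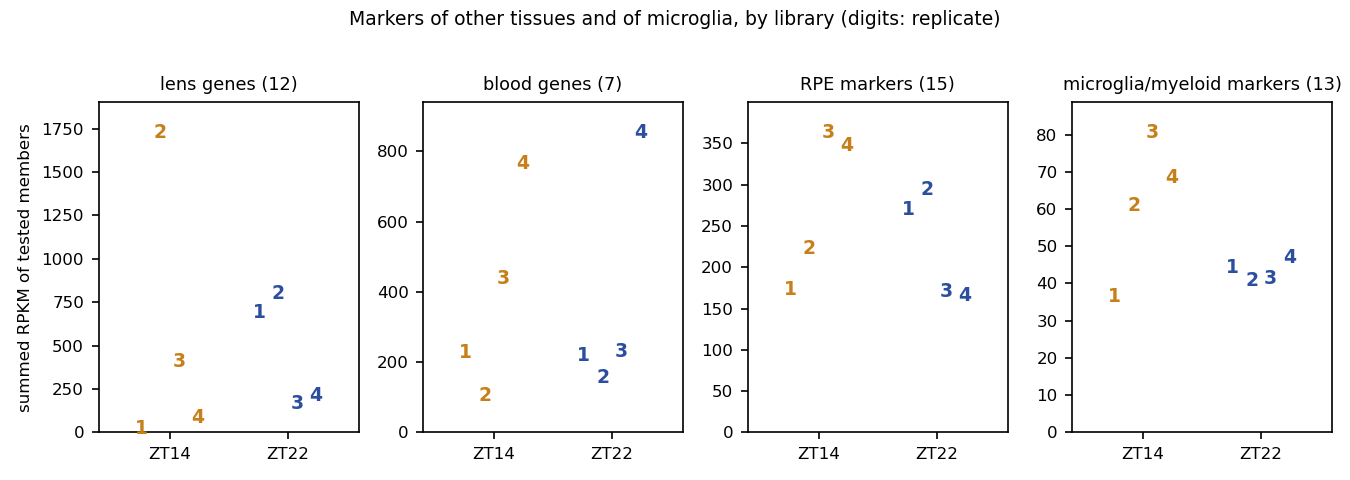
Summed RPKM of the tested lens, blood, retinal pigment epithelium (RPE) and microglia/myeloid marker genes (vertical axes, each from 0) in each aged library at ZT14 and ZT22, with the digit giving the replicate and the bracket the number of genes. Lens sums run from 21.0 to 1729.9 RPKM within ZT14 alone, and 3 of 4 ZT14 libraries lie above all ZT22 libraries for the microglial and myeloid markers.

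Of the 14443 genes, 166 passed (1.15%), and 52 of them rose (0.36%) and 114 fell (0.789%). With a fold of more than 1.5 as well, which is called here, there were 30 genes (0.208%), 6 higher and 24 lower at ZT22. The split between rises and falls changed with the scaling: 31.3% of passing genes rose as deposited, 56.2% of 64 after median-ratio scaling and 68.6% of 175 after quantile normalization, while among called genes the shares that rose were 20.0%, 42.1% and 58.6%, so that falls stayed the majority of called genes with median-ratio scaling and not with quantile normalization. The median log2 difference of all tested genes was -0.082 as deposited, -0.012 with median-ratio scaling and 0.0022 with quantile normalization, and 70.6% of the tested genes were below 0 as deposited. Protein-coding genes made up 154 of the 166, beside 4 long intergenic noncoding RNAs and 3 processed pseudogenes. The 2 groups did not overlap for 1726 genes (12%), and 2554 genes (17.7%) had an unadjusted p under 0.05. The number called fell to 7 without ZT14 replicate 4, to 12 without ZT14 replicate 3, to 14 without ZT14 replicate 1 or 2 and to 19 without ZT22 replicate 1 or 4, and it was 56 without ZT22 replicate 2, and 32 without ZT22 replicate 3. Without those same libraries 10, 29, 36, 32, 38, 39, 226 and 127 genes passed.

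**Figure D2:**
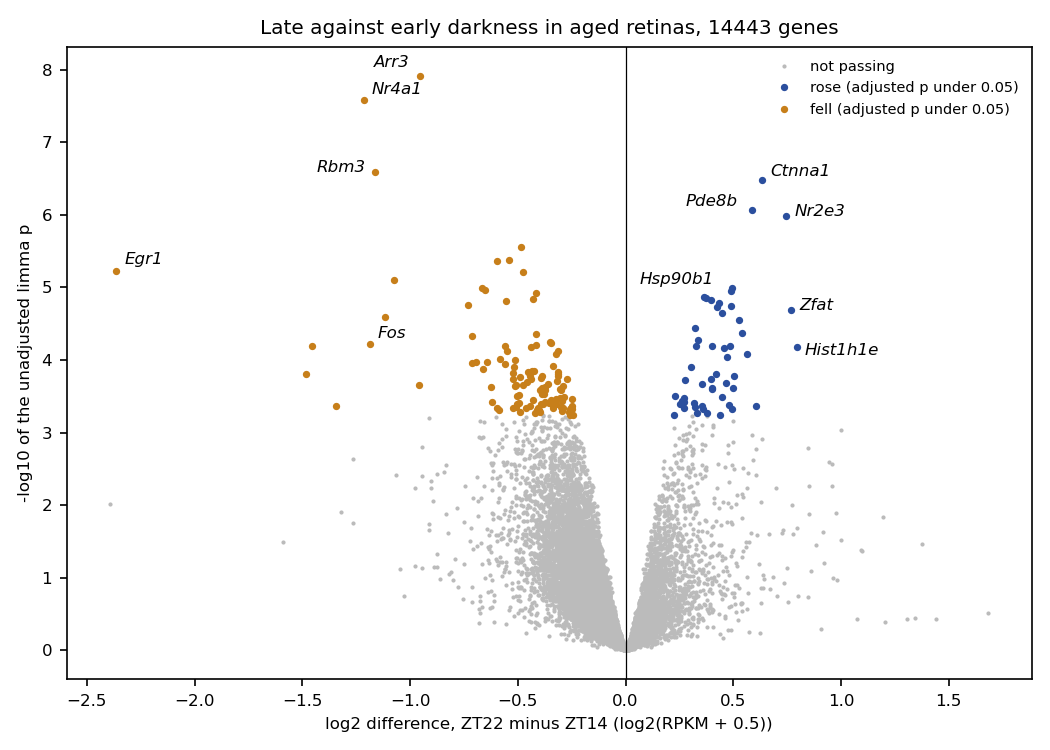
Log2 difference between ZT22 and ZT14 in aged retinas (horizontal axis) against -log10 of the unadjusted limma p (vertical axis) for the 14443 tested genes, 1 point per gene. Blue points are the 52 genes that rose and orange points the 114 that fell at an adjusted p under 0.05, and Egr1 lies farthest to the left among them at -2.37.

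The 3 largest falls among genes named by the rule on size were immediate early genes, while 2 processed pseudogenes, Gm10156 and Gm48583, and the noncoding Gm30684 fell by 1.48, 1.46 and 1.34 on the log2 scale. Egr1, a zinc finger transcription factor, was at 75.5, 55.2, 37.9 and 56.2 RPKM in the ZT14 libraries and at 16.4, 10.4, 6.69 and 9.38 RPKM in those of ZT22. The naming rule took only genes whose 2 groups did not overlap, as held for 1726 of all 14443 tested genes (12%). Every ZT22 library thus lay below every ZT14 library by that rule, and the log2 difference of Egr1 was -2.37 ± 0.26 (SE, n = 4 and 4, limma adjusted p = 0.00793). Without ZT14 replicate 4 the adjusted p of Egr1 was 0.0522. Nr4a1, an orphan nuclear receptor, was at 34.2, 35.6, 34.6 and 40.5 RPKM and then at 15.2, 16.6, 13.8 and 15.6 RPKM. Its 2 groups were far apart relative to their spread, with a log2 difference of -1.22 ± 0.073 (limma adjusted p = 0.000191). Fos, a subunit of the AP-1 transcription factor, was at 31.3, 26.3, 20.9 and 29.6 RPKM and then at 14.9, 9.17, 9.40 and 13.3 RPKM. The ZT22 libraries were again all lower, as the rule required, with a log2 difference of -1.19 ± 0.17 (limma adjusted p = 0.0209). Fos passed in 17 of 24 alternative analyses, and not without ZT14 replicate 1, 2 or 4. Ier2, a small nuclear protein gene of the same class, fell from a mean of 28.3 ± 2.63 to 17.2 ± 2.96 RPKM (SD, n = 4), and Junb, another AP-1 subunit, from 14.3 ± 1.46 to 9.14 ± 1.28 RPKM. Of 21 tested genes on the immediate early list 6 fell, counting the clock gene Per1, and none rose, with a median log2 difference of -0.23 beside -0.082 over all genes. Among all 14443 tested genes 1.15% passed, with 0.789% falling and 0.36% rising. The same 6 fell without ZT22 replicate 3, where the list's median was -0.19, and it was -0.15 with median-ratio scaling and -0.13 with quantile normalization. Sik1, a kinase gene induced by cAMP, fell from 4.23 ± 0.457 to 2.59 ± 0.407 RPKM, as the only passing member of 21 tested feedback genes of the MAPK and cAMP pathways. Values at ZT18 lay between those of the 2 times for Egr1 (29.2 ± 10.4 RPKM, SD, n = 3), Nr4a1 (25.5 ± 4.03 RPKM) and Fos (17.4 ± 6.28 RPKM).

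Among the clock genes the repressor Per1 and the output factor Dbp passed. Per1 was at 20.1, 20.6, 18.9 and 20.9 RPKM at ZT14 and at 14.3, 14.8, 12.4 and 12.8 RPKM at ZT22. The groups did not overlap, as held for 12% of all tested genes. The log2 difference of Per1 was -0.55 ± 0.069 (limma adjusted p = 0.01). Dbp, a PAR-domain transcription factor, was at 24.2, 28.6, 24.7 and 25.0 RPKM and then at 18.6, 20.9, 16.6 and 17.3 RPKM. Its log2 difference was -0.48 ± 0.083 (limma adjusted p = 0.036), and without ZT22 replicate 3 the adjusted p was 0.0521. All 8 tested repressors had a log2 difference below 0 as deposited, as did 70.6% of all tested genes, though Cry2 was above 0 with median-ratio scaling, and Cry2 and Per3 were with quantile normalization and without ZT22 replicate 3. Their median was -0.12 as deposited, -0.037 with median-ratio scaling, -0.039 with quantile normalization and -0.075 without ZT22 replicate 3. The differences ran from -0.037 for Cry2 to -0.59 for Ciart, whose adjusted p was 0.115. Nr1d2, a repressor of the REV-ERB type, was the closest of them to the threshold (-0.21 ± 0.049, adjusted p = 0.0755), and Cry1, Nr1d1, Per2 and Per3 lay between -0.12 and -0.085 with adjusted p-values of 0.289 or more. The 6 output factors were all below 0 under these scalings too, with a median of -0.24 as deposited and -0.16 under either scaling, and Tef, Hlf, Nfil3, Bhlhe40 and Bhlhe41 lay between -0.25 and -0.17 without passing. The 5 tested activators and ROR receptors had a median of 0.0075 (0.085 with median-ratio scaling and 0.094 with quantile normalization) and none passed or had an unadjusted p under 0.05 in limma. Among them the receptor genes Rora and Rorb were at -0.031 and 0.094. No kinase or ubiquitin ligase of the clock passed (0 of 8, median -0.033, which was 0.048 with median-ratio scaling, and 1 of the 8 had an unadjusted p under 0.05).

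**Figure D3:**
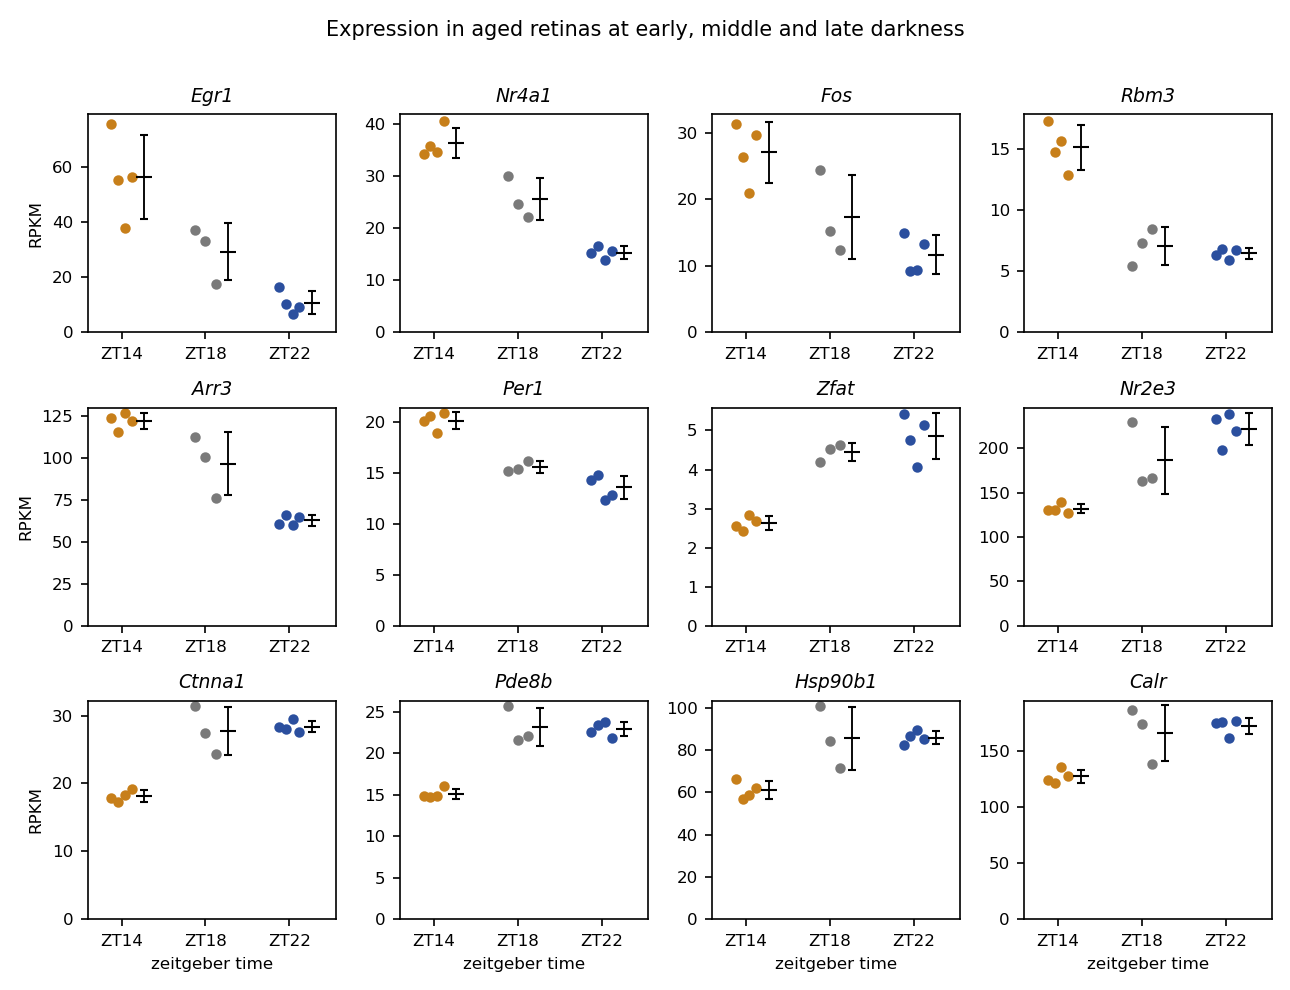
RPKM (vertical axes, from 0) of 12 genes in aged retinas at ZT14 (4 libraries), ZT18 (3) and ZT22 (4), with points for libraries and bars for the mean and SD. For Egr1, Nr4a1, Fos, Rbm3, Arr3 and Per1 all ZT22 points lie below all ZT14 points, and for Zfat, Nr2e3, Ctnna1, Pde8b, Hsp90b1 and Calr all lie above. Apart from Per1, Hsp90b1 and Calr, these genes were named under a rule that required such separation.

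Photoreceptor genes moved in both directions. Arr3, the cone arrestin that shuts off cone opsins, was at 124, 116, 127 and 122 RPKM at ZT14 and at 60.4, 66.0, 59.9 and 64.8 RPKM at ZT22. The libraries of each time agreed closely, the mean at ZT22 was 51.4% of that at ZT14, and the log2 difference was -0.95 ± 0.053 (limma adjusted p = 0.000175). None of the other 11 tested cone phototransduction genes passed. The cone opsin genes Opn1mw and Opn1sw had differences of -0.16 and 0.26, and the cone transducin gene Gnat2 one of 0.017, all with overlapping groups. Nr2e3, a nuclear receptor that promotes rod genes and represses cone genes, was at 130.1, 131, 139.7 and 127 RPKM and then at 232, 198, 239 and 219 RPKM. Separate groups were required by the rule under which Nr2e3 and Arr3 were named. The lowest ZT22 library of Nr2e3 was well above its highest ZT14 library, and the rise was 0.74 ± 0.068 on the log2 scale (limma adjusted p = 0.00253). It was the only passing member of 12 tested photoreceptor transcription factor genes, whose median was 0.12. The 21 rod phototransduction genes had a median of 0.21, with 16 above 0 and none passing. Of them 11 had an unadjusted limma p under 0.05, beside 17.7% of all tested genes. Pde6a, a subunit of the rod phosphodiesterase, came closest (862 ± 45.0 to 1223 ± 161 RPKM, adjusted p = 0.0541), and Sag, the rod arrestin, lay on the other side of 0 (724 ± 64.4 to 554 ± 56.0 RPKM, adjusted p = 0.082). The groups of Pde6a and Sag did not overlap, as held for 10 of the 21 rod genes and 12% of all tested genes. Both genes were chosen after their values were seen. Without ZT22 replicate 3, which held the most Gnat1, the median of the rod list was 0.13 and 1 of its genes fell, Sag with an adjusted p of 0.0486. After quantile normalization 5 of the 21 passed and the median was 0.11, and with median-ratio scaling it was 0.29.

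Several passing genes that act in photoreceptors or at their synapses are given with the remark that they were chosen after their values were seen. Samd7, a photoreceptor gene of Polycomb repression, fell from 59.4 ± 1.48 to 42.2 ± 2.02 RPKM. Rims2, an active zone scaffold gene, fell from 28.2 ± 1.22 to 20.8 ± 0.909 RPKM. In the other direction, Dlg4, which encodes the scaffold PSD-95, rose from 48.7 ± 2.05 to 65.5 ± 3.40 RPKM, and Cacna2d4, a calcium channel subunit gene of photoreceptor terminals, from 46.1 ± 3.00 to 64.7 ± 2.45 RPKM. None of these 4 genes had overlapping groups, as held for 1726 of all 14443 tested genes (12%). Since they were picked among passing genes, this separation adds no further support. Pcdh15, a protocadherin gene among the 15 largest falls, went from 8.75 ± 0.543 to 5.38 ± 0.473 RPKM.

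Genes of several other kinds made up the rest of the largest changes. Rbm3, an RNA-binding protein gene that is induced by mild cold, was at 17.3, 14.8, 15.7 and 12.9 RPKM at ZT14 and at 6.31, 6.86, 5.95 and 6.77 RPKM at ZT22. Each ZT22 library was at about the same low level, and the log2 difference was -1.16 ± 0.090 (limma adjusted p = 0.0012). At ZT18 the mean of Rbm3 was already 7.09 ± 1.52 RPKM (SD, n = 3). The second cold-inducible gene of that list had a difference of -0.17 and did not pass. Ctnna1, which encodes the adherens junction protein alpha-catenin, was at 17.9, 17.2, 18.3 and 19.2 RPKM and then at 28.3, 28.1, 29.5 and 27.6 RPKM. Its rise of 0.63 ± 0.050 had an adjusted p of 0.0012 in limma. Pde8b, a phosphodiesterase that degrades cAMP, was at 14.8, 14.8, 14.8 and 16.02 RPKM and then at 22.6, 23.5, 23.8 and 21.9 RPKM. It rose by 0.59 ± 0.052 (limma adjusted p = 0.00246), and its ZT18 mean of 23.2 ± 2.27 RPKM was the only one of the 20 largest changes that lay beyond the ZT22 mean, the other 19 lying between the 2 times. Zfat, a zinc finger transcription factor gene, rose from 2.63 ± 0.178 to 4.85 ± 0.590 RPKM, and Hist1h1e, a linker histone gene, from 2.48 ± 0.361 to 4.65 ± 0.574 RPKM. The remaining large falls were Shisal2b (log2 difference -0.73), the mitochondrial import gene Timm8a1 (-0.71), the zinc transporter gene Slc39a11 (-0.67), the peptidase gene Npepl1 (-0.66), the mitochondrial inner membrane peptidase gene Immp2l (-0.64) and the ephrin receptor gene Ephb1 (-0.60), all at means under 10 RPKM. In the 24 alternative analyses Nr2e3, Ctnna1, Pde8b, Rbm3 and Arr3 passed every time, Nr4a1 in all but the fit with all aged libraries (adjusted p = 0.0759), and Ephb1 in 10. Leaving out ZT14 replicate 4 took the adjusted p of Zfat, Slc39a11, Pcdh15, Per1, Hsp90b1 and Calr above the threshold. Per1, Hsp90b1 and Calr also did not pass with all aged libraries or all libraries in the fit, and Pcdh15 did not with all aged libraries. Ier2, Junb, Dbp, Pdia3, Sik1, Npepl1, Immp2l, Pfkfb3, Psmb3, Ndufc2, Gas6 and Hspa4l passed in 8 to 16 of the 24, and none of them passed when any 1 of the ZT14 libraries was left out. Hist1h1e passed in 16, and not without ZT14 replicate 2, 3 or 4 or ZT22 replicate 1 or 4. Shisal2b passed in 19 and Timm8a1 in 18, and neither did with median-ratio scaling or without ZT14 replicate 3 or 4. Timm8a1 also did not pass with quantile normalization, and Shisal2b did not with all aged libraries or all libraries in the fit.

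Chaperones of the endoplasmic reticulum, which fold secreted and membrane proteins, were the list with the most rises. Hsp90b1, which encodes the HSP90 of that compartment (GRP94), was at 66.3, 57.0, 58.6 and 62.3 RPKM at ZT14 and at 82.3, 86.8, 89.4 and 85.3 RPKM at ZT22. All ZT22 libraries exceeded all ZT14 libraries, with a log2 difference of 0.49 ± 0.058 (limma adjusted p = 0.00995). Calr, the calcium-binding lectin calreticulin, was at 124, 122, 135 and 128 RPKM and then at 175, 176, 162 and 177 RPKM. The groups were separate here too (0.43 ± 0.054, limma adjusted p = 0.0104), as held for 12% of all tested genes. Pdia3, a disulphide isomerase that works with calreticulin, rose from 53.2 ± 1.47 to 66.8 ± 2.85 RPKM (0.33 ± 0.048, limma adjusted p = 0.0209). Of 21 tested members these 3 rose, none fell, 17 were above 0, and the median was 0.11, or 0.19 with either scaling. Over all tested genes 0.36% rose, 0.789% fell and 70.6% were below 0 as deposited. Hspa5, the main HSP70 of the compartment (81.4 ± 6.20 and 93.0 ± 3.77 RPKM), and the folding genes Dnajb11, Hyou1 and Manf did not pass, at log2 differences of 0.19, 0.19, 0.22 and 0.11. Xbp1, which encodes a transcription factor of the unfolded protein response, was at 29.2 ± 0.740 and 29.0 ± 2.74 RPKM. With median-ratio scaling Pdia3 no longer passed, and with quantile normalization 6 of the 21 did. In the cytosol, 1 of 27 heat shock chaperone genes rose, Hspa4l, a relative of HSP110 (35.7 ± 1.68 to 43.1 ± 1.65 RPKM), at a list median of -0.033 that changed sign with either scaling.

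Large groups of housekeeping genes lay below 0 with few or no members that passed. Of all tested genes 70.6% were below 0 and 17.7% had an unadjusted limma p under 0.05. In all, 1.15% of them passed, 0.36% rising and 0.789% falling. The cytosolic ribosomal proteins had a median of -0.24, with 75 of 78 below 0, none passing and 38 at an unadjusted p under 0.05. Mitochondrially encoded genes had a median of -0.29 (12 of 13 below 0, none passing, 5 at an unadjusted p under 0.05), and their share of all reads was 3.26 to 3.79% at ZT14 and 2.54 to 3.08% at ZT22, without overlap. mt-Co1, a cytochrome oxidase subunit, had means of 8161 ± 546 and 6444 ± 342 RPKM and an adjusted p of 0.214. Complex I subunits had a median of -0.17 with Ndufc2 as the only one of 37 that fell (139 ± 7.29 to 104 ± 11.8 RPKM), and proteasome subunits one of -0.12 with Psmb3 and Psmd13 as 2 falls among 31. These 4 medians stayed below 0 with median-ratio scaling, at -0.16, -0.22, -0.092 and -0.038, and with quantile normalization. Ndufc2, Psmb3 and Psmd13 did not pass with median-ratio scaling, and Psmd13 passed in only 6 of the 24 alternative analyses. In metabolism, Acaa2, a thiolase of fatty acid oxidation, fell from 13.0 ± 0.801 to 8.40 ± 0.399 RPKM (adjusted p = 0.00693) as 1 of 20 genes of its list, and Pfkfb3, which makes an activator of glycolysis, from 6.42 ± 0.117 to 4.14 ± 0.566 RPKM as 1 of 21. Gas6, a ligand of the receptors by which the pigment epithelium takes up shed outer segments, rose from 88.8 ± 1.43 to 104 ± 1.61 RPKM as the only passing gene of 15 on the phagocytosis list. Single falls were also found for Hnrnpdl among 26 splicing factor genes, Dars among 19 aminoacyl-tRNA synthetase genes and Ankrd37 among 12 vessel growth factor and hypoxia genes. Hnrnpdl, Dars and Ankrd37 passed in only 9, 8 and 7 of the 24 alternative analyses. None of them passed with median-ratio scaling, with quantile normalization or with any 1 of the ZT14 libraries left out. Without ZT22 replicate 3, 10 named genes no longer passed, at adjusted p-values of 0.0512 to 0.0681: Ankrd37, Cndp2, Dars, Dbp, Ephb1, Gas6, Hnrnpdl, Hspa4l, Psmd13 and Sik1.

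No marker of the glial, immune or inner retinal lists passed. The counts below stand beside 70.6% of all tested genes below 0 and 17.7% at an unadjusted limma p under 0.05. All 13 tested microglia and myeloid markers were below 0, with a median of -0.41 and none passing (4 at an unadjusted p under 0.05), and their summed level was 36.6, 60.8, 80.6 and 68.3 RPKM at ZT14 and 44.3, 40.8, 41.3 and 46.8 RPKM at ZT22. The ZT14 replicate 1 library lay below all ZT22 libraries. The 15 reactive gliosis genes were all below 0 (median -0.35, none passing, 7 at an unadjusted p under 0.05), among them Gfap, the glial intermediate filament gene, at 6.51 ± 1.06 and 4.39 ± 0.431 RPKM (adjusted p = 0.0781). Without ZT22 replicate 3 the median was -0.40 for the microglial list and -0.19 for the gliosis list. The Muller glia and bipolar cell lists had medians of -0.27 and -0.25, and -0.20 and -0.16 without ZT22 replicate 3, with no passing member of 17 and 16. Ganglion cell and amacrine and horizontal cell markers had medians of -0.21 and -0.15, and -0.056 and -0.028 without ZT22 replicate 3, again with none passing of 14 and 16. With median-ratio scaling the medians of the ganglion and amacrine lists were -0.14 and -0.074. The 12 lens genes were all above 0, with a median of 0.99, yet none had an unadjusted p under 0.05. The part of lens, microglial and glial genes in the results for other genes was not tested. With the pigment epithelium level as a covariate 72 genes passed and 22 were called, and with the blood level 67 passed and 26 were called, beside 166 and 30 without.

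**Figure D4:**
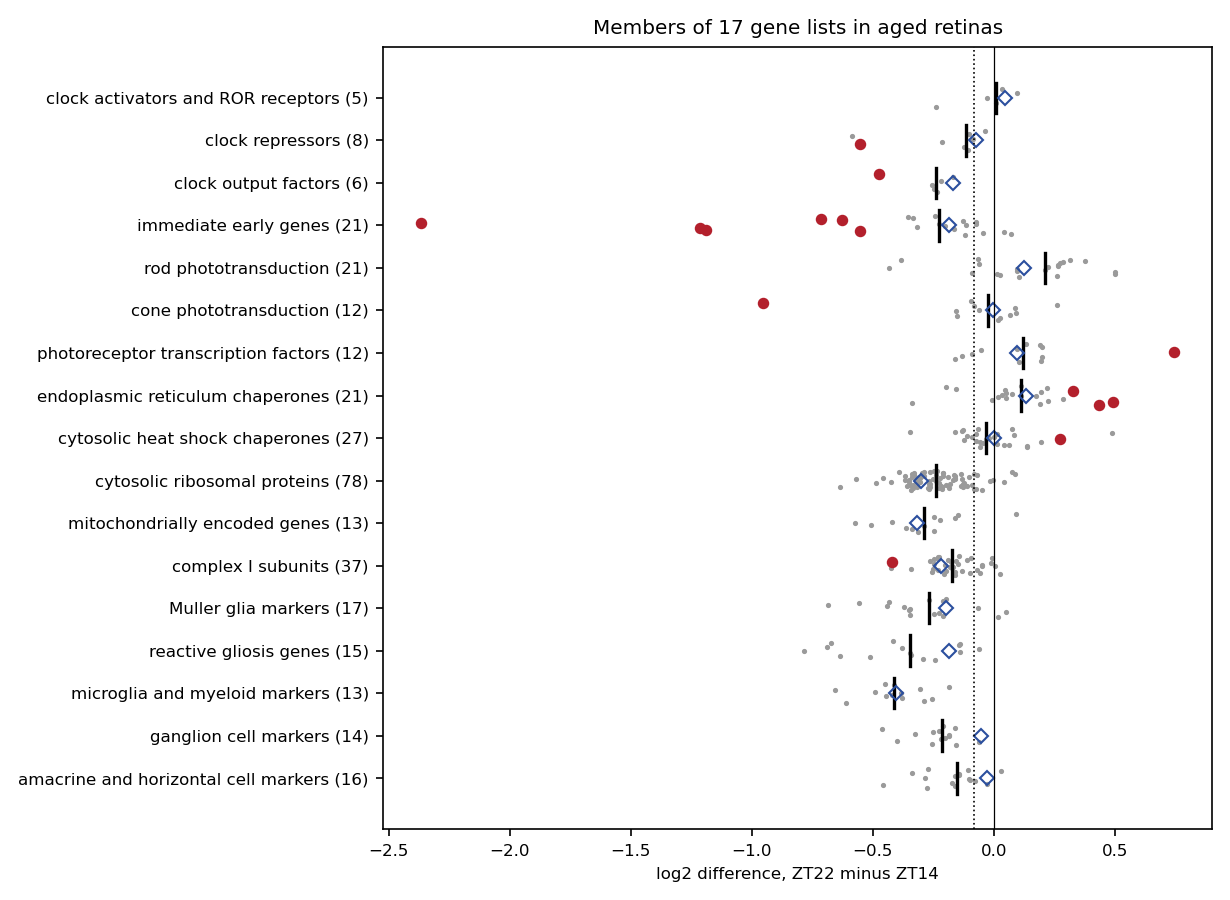
Log2 difference between ZT22 and ZT14 (horizontal axis) of the tested members of 17 gene lists, with the number of members in brackets. Red points passed at an adjusted p under 0.05, grey points did not, black bars are list medians, open diamonds the medians without ZT22 replicate 3, and the dotted line the median of all genes, -0.082. The 6 red points of the immediate early list lie to the left and the 3 of the endoplasmic reticulum chaperones to the right.

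The same comparison in 6-week-old retinas was set beside the aged one in a fit of all 16 libraries, which tested 15351 genes. In that fit 195 genes (1.27%) passed in aged retinas, 51 higher and 144 lower at ZT22, and 100 genes (0.651%) in young retinas, 24 higher and 76 lower. Both lists shared 41 genes, 21.0% of the aged and 41.0% of the young list, and all 41 had the same direction in both ages. Of the 195 aged genes 187 (95.9%) had the same sign in young retinas, beside 60.3% of all tested genes. All 20 genes with the largest aged changes had the same sign in young retinas and 14 of them passed there. Arr3 had means of 118 ± 11.2 and 59.4 ± 8.25 RPKM in young retinas (SD, n = 4), Nr4a1 of 30.3 ± 3.67 and 14.2 ± 1.87 RPKM, and Egr1 of 55.8 ± 7.47 and 8.82 ± 6.40 RPKM. Differences between the ages in the log2 change, aged minus young, had 95% intervals of -0.22 to 0.30 for Arr3, -0.46 to 0.15 for Nr4a1 and -0.69 to 1.66 for Egr1. Pde8b had the narrowest of the named large changes, -0.18 to 0.16, around changes of 0.59 in both ages.

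No gene passed the interaction test of aged against young (limma, 0 of 15351), while 855 genes (5.57%) had an unadjusted p under 0.05. The count was also 0 with limma voom on recovered reads. The smallest p-values belonged to Acat1, a mitochondrial thiolase gene, and Hspa1b, a heat-inducible HSP70 gene whose reads can be shared with its near-identical neighbour. Acat1 was at 15.9 ± 0.526 and 13.4 ± 0.671 RPKM in aged and at 13.5 ± 1.59 and 17.5 ± 1.18 RPKM in young retinas, a difference of -0.61 between the 2 changes (95% interval -0.83 to -0.38, limma adjusted p = 0.302). Hspa1b was at 25.0 ± 1.26 and 26.4 ± 1.28 RPKM in aged and at 26.7 ± 1.42 and 20.6 ± 0.684 RPKM in young retinas, a difference of 0.44 (0.27 to 0.60, limma adjusted p = 0.302). Trim23, Armcx6 and Cndp2 followed, with differences of -0.49, -0.56 and -0.34. A set of 31 named genes passed in aged retinas in the fit of 8 libraries and did not pass in young ones in the fit of 16. Not all of them passed in aged retinas in the fit of 16, and Pdia3 did not. The interval of the difference between the ages held 0 in 21 of the 31: it was -0.031 to 0.48 for Calr, -0.092 to 0.41 for Pdia3 and -0.45 to 0.077 for Dbp. It excluded 0 in the other 10, among them Acaa2 and Timm8a1 (-0.87 to -0.041 and -0.75 to -0.14), with adjusted p-values of 0.885 and 0.861. On simulated data the interaction fit recovered 34.3%, 59.7% and 90.8% of changes of 1.5, 2 and 4 fold, and smaller changes were not simulated.

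**Figure D5:**
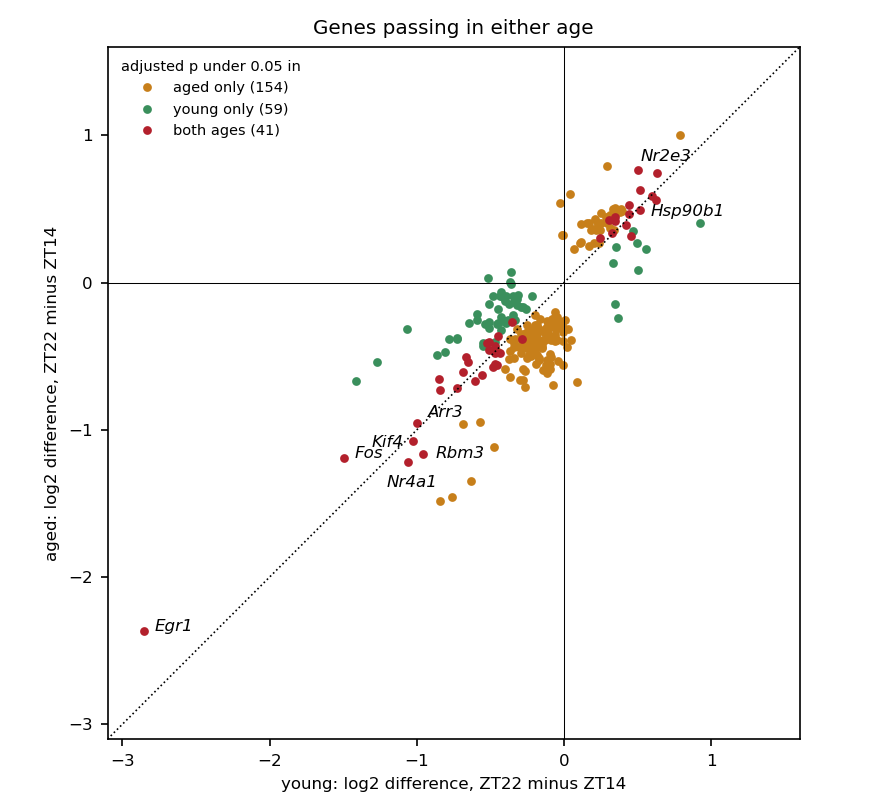
Log2 difference between ZT22 and ZT14 in young (horizontal axis) and aged retinas (vertical axis) for the 254 genes that passed in either age in the 16-library fit, coloured by the age in which they passed, with the dotted line marking equal values. The 41 genes that passed in both ages have the same sign in both, from Egr1 at -2.37 in aged retinas to Zfat at 0.77.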

How the data were processed

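Polyadenylated RNA was selected from retinas and sequenced. The authors deposited RPKM values, 1 column per library. Build GRCm39 and the tools HISAT2 2.2.1, Subread 2.0.6 and FastQC 0.23.4 are listed in the submitters' processing notes, and the labels state edgeR for the study's own tests. Neither annotation release nor strand setting is stated by the labels or notes, so reads of overlapping genes cannot be told apart. The table has 1 further column with no matching sample, and it was left aside. Libraries were grouped by labelled age and zeitgeber time, with 4 mice at ZT14 and at ZT22 in each age and 3 libraries of aged ZT18. Symbols were found for 51884 of 57180 identifiers in GENCODE M21, which is on an earlier build, and 355 tested genes had none. That annotation also gave the gene types and the exon lengths used to recover reads.

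Genes with at least 0.5 RPKM in 4 or more of the 8 libraries were tested with limma 3.58.1 in R 4.3.3 on log2(RPKM + 0.5), eBayes with trend, two-sided, with Benjamini-Hochberg adjustment over all of them. Fold changes on this scale understate the change of low genes. A gene counted as called when its adjusted p was below 0.05 and it changed over 1.5 fold. Ages were compared by the interaction in a fit of 16 libraries. On simulated data with 14146 genes the aged fit recovered 42.4%, 72.7% and 93.8% of changes of 1.5, 2 and 4 fold at an adjusted p under 0.05, with no fold minimum. Of the genes that passed there, 2.14% were unchanged genes. The interaction fit was simulated with 14400 genes. Both simulations drew genes independently, with no deviation shared by the genes of a library such as that of ZT22 replicate 3. These shares therefore hold for such simulated data only.

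Values were whole multiples of 1 read for 37323 of 37323 genes above 0 (tolerance 0.01 reads; 87.79% at the annotated exon length, the rest at a length chosen to make them whole), which gave totals of 32.0 to 55.5 M reads over the 47 libraries and the reads for limma voom, added after seeing the data; it passed 154 genes. No 2 replicates looked like 1 library: chi-square per gene ran from 11.4 to 75.4 in the 12 pairs within groups. The 20 genes of largest change had at least 114 reads in every library.

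The members, 51 gene lists and tests were chosen with earlier results of these data known. Named were up to 15 rises and 15 falls of largest change among called genes with separate groups, at least 2 RPKM in 1 group and a symbol that is no clone name or pseudogene (5 rises and 15 falls), the clock activators, repressors and output factors (some named genes are counted but not reported here), up to 4 passing members of each list (2 of the highest where none passed), and the 5 smallest p-values of the difference between ages. Genes outside these rules are given as chosen after their values were seen; they include the marker genes of cell types, the chaperone genes that did not pass and Pde6a, Sag and Gfap. Lists not described had no passing member or are given in the closing section. Alternative analyses left out each library or varied the scaling, filter, pseudocount, weights, variance moderation, fold minimum, covariates, fitted libraries and replicate block.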

Additional observations from a re-analysis of the deposited data

Results flagged for a closer look

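Among 240 groups of 4 libraries screened, 11 held 1 library whose gap to the nearest of the others exceeded the 95% critical share of the group's range in Dixon's test, a criterion that chance meets in about 1 of 20 groups. At ZT14, Pde8b was at 16.02 RPKM in replicate 4 (others 14.76 to 14.81) and the peroxidase gene Gpx4 at 480.0 RPKM in replicate 3 (403.2 to 406.2). At ZT22, replicate 4 held 388.6 RPKM of the globin gene Hbb-bs (61.48 to 94.39), 351 RPKM of Hba-a1 (56.34 to 88.25), 2.904 RPKM of the muscle gene Mylpf (2.051 to 2.188) and 2.035 RPKM of Armcx6 (1.678 to 1.731). Replicate 3 of ZT22 held 40.49 RPKM of Adcy1 (37.87 to 38.24) and 161.7 RPKM of Calr (175.0 to 176.7). Replicate 2 of ZT22 held 499.2 RPKM of Glul (330.8 to 353), and replicate 1 held 5.959 RPKM of the complement gene C1qa (6.867 to 7.039) and 46.47 M reads in all (36.20 to 37.65 M). Calr stayed above all ZT14 libraries in that library.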

How the results depend on the processing

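No named gene that had passed changed sign under an alternative, and other genes were not screened for this. The share of passing genes that rose was 31.3% as deposited, 56.2% with median-ratio scaling and 68.6% with quantile normalization. Counts of passing members of single lists moved by more than 1.5 times in 198 values and not in 234. With 30 genes called as deposited, the count was 166 with no fold minimum, 14 with no filter, 19 with median-ratio scaling, 90 with array weights, 16 without the trend, 12 with all aged libraries in the fit, 18 with all libraries, 57 with all but 2 libraries (replicate 4 of young ZT10, replicate 3 of aged ZT6), and 7 to 56 when 1 library was left out. With 166 genes passing, the count was 47 with no filter, 64 with median-ratio scaling, 988 with array weights, 28 without the trend, 22 with all aged libraries, 57 with all libraries, 585 with all except those 2, 72 and 67 with the pigment epithelium and blood covariates, and 10 to 226 when 1 library was left out; the causes were not tested. With the replicate block 31 genes were called and 71 passed. The other alternatives moved these counts by less than 1.5 times, and limma voom called 33. The block was no pairing of animals: replicates share only a number, and same-numbered libraries deviated together by correlations of -0.105, 0.206, 0.324 and -0.0363. The difference between ages stayed at 0 genes in all alternatives run. Of 2926 values of single named genes under an alternative, 284 lost and 26 gained an adjusted p under 0.05. The young count of 100 was 38 with all libraries and 37 to 124 with 1 library left out. Fos, Per1, Hsp90b1 and Calr did not pass with all aged libraries or all libraries in the fit, where their highest adjusted p-values over the alternatives were 0.301, 0.276, 0.485 and 0.247.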

Other observations

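Lists not described so far held few passing members. Of 16 glucocorticoid-responsive genes and metallothioneins 1 fell, Per1, which stands in 3 lists. The metallothionein gene Mt1 was at 26.4 ± 4.60 RPKM at ZT14 and 16.4 ± 4.54 RPKM at ZT22 (SD, n = 4, limma adjusted p = 0.105). The glutamine synthetase gene Glul of Muller glia was at 480.0 ± 48.9 and 381 ± 79.7 RPKM (adjusted p = 0.219). No member passed among 13 dopamine, cAMP and melatonin genes (median log2 difference -0.12, all below 0 as deposited, as were 70.6% of all tested genes). That median was -0.057 without ZT22 replicate 3, -0.066 with median-ratio scaling and -0.031 with quantile normalization. In this list Drd4, a dopamine receptor gene, was at 190.0 ± 13.7 and 188 ± 13.7 RPKM, with a difference that turned from -0.012 to 0.071 under median-ratio scaling, and Adcy1, an adenylyl cyclase gene, at 46.4 ± 3.27 and 38.6 ± 1.26 RPKM (adjusted p = 0.0713). Medians of -0.32, -0.33 and -0.23 were found for 9 MHC class I, 9 complement and 20 interferon response genes without a passing member, and 6, 3 and 4 of them had an unadjusted p under 0.05, beside 17.7% of all genes. Without ZT22 replicate 3 the complement median was -0.16. The cholesterol list (24 genes, median -0.038), the visual cycle list (13, -0.078), the autophagy and lysosome list (22, -0.081) and the antioxidant list (21, -0.089) had no passing member, and with median-ratio scaling their medians were 0.037, 0.0042, -0.0096 and -0.011.

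Mxi1, a MAX-binding repressor gene, fell from 20.5 ± 0.554 to 13.9 ± 0.903 RPKM in aged retinas (limma adjusted p = 0.00693) and by 0.65 on the log2 scale in young ones, and Kif4, a mitotic kinesin gene at low level, from 1.23 ± 0.137 to 0.323 ± 0.0653 RPKM. Both were chosen after their values were seen.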
